A study of Mus musculus with 9 samples.

Results

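The 31 genes described here make, regulate, store and export cholesterol. They were taken by name from the pathways of the sterol-sensing transcription factor SREBP2 and of the liver X receptors (LXRs), and each was matched to its Ensembl identifier, giving 31 of the 53801 genes counted in every library. The list held 18 enzymes of cholesterol synthesis, 4 genes of SREBP control and sterol transport, 7 LXR receptors and targets, and 2 genes of sterol esterification and oxysterol production.

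RNA was sequenced from cells with the surface phenotype CD11c-Ly6G-CD11b+CD45high, sorted as monocytes and macrophages from male C57BL/6J mice aged 9 weeks. Stroke was induced by permanently closing the left common carotid artery and the distal part of the left middle cerebral artery. The 3 sham blood libraries came from mice that had a sham operation and the 3 stroke blood libraries from mice with stroke, with 1 mouse for each library. Each of the 3 stroke brain libraries pooled the ipsilesional hemispheres of 5 mice with stroke. Stroke blood and stroke brain were taken 5 days after occlusion, and the day for sham blood is not given in the sources used here. Library totals lay between 18475118 and 22623578 counts. The sort does not separate activated microglia from macrophages derived from monocytes, as the study's text states.

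As background, cholesterol is built from acetyl-CoA through the mevalonate steps and then through squalene and a chain of sterol intermediates, and SREBP2 raises the genes of this chain when sterol in the endoplasmic reticulum runs low. LXRs act at the other end: bound by oxysterols, they raise the transporters that pass cholesterol out of the cell. In injured brain, phagocytes that engulf dead cells and myelin take in large amounts of cholesterol, which they can store as ester or export.

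Levels (CPM) are counts scaled to a common library total with the TMM factors of edgeR over all 9 libraries and listed in the order of replicates 1, 2 and 3, and levels of different genes are compared only as CPM per kilobase of exon. A mean is given ± SD over 3 libraries and a log2 fold change ± SE. Of the 31 members, 13 have a near-identical copy elsewhere or share exon bases with another gene, among them the called members Fdft1, Lss, Nr1h3 and Ch25h, and their counts could include reads of the other gene. A gene was called a DEG when its absolute log2 fold change passed 1 and its adjusted p (edgeR quasi-likelihood test, Benjamini-Hochberg over all genes tested) was below 0.05. Brain and blood cells were sorted from different tissues and isolated differently. Brain cells went through a tissue dissociation kit, a heated dissociator and a Percoll gradient, and blood cells through Ficoll. Tissue, cell source and isolation therefore cannot be told apart. In these bulk samples, fewer cells of a type and less RNA per cell cannot be told apart.

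All 8 monocyte and macrophage markers had counts in every library, with Lyz2 the most abundant, and they summed to 127327, 101670.0 and 90678 CPM in sham blood, 103972, 110954 and 108076 CPM in stroke blood and 41758, 45635 and 47874 CPM in stroke brain. Most of each sum was Lyz2, at 118293, 93404 and 81337 CPM in sham blood, 94672, 100647 and 98469 CPM in stroke blood and 35422, 38707 and 40363 CPM in stroke brain, a DEG lower in brain. Of the 8 markers, 4 fell and 4 did not pass in brain against stroke blood, 2 of these with positive values, and against sham blood 3 fell and 1 rose. The 8 microglia markers summed to 159, 161 and 209 CPM in sham blood, 173, 206 and 149.6 CPM in stroke blood and 1189.6, 1879 and 3497 CPM in stroke brain. Every brain library exceeded every blood library, and brain replicate 3 was the highest and brain replicate 1 the lowest of the 3. In blood, Sall1 had 0 counts in all 6 libraries and Siglech had 0 counts in stroke blood. All 8 microglia markers were DEGs higher in stroke brain than in stroke blood, while P2ry12 was also measured in every blood library.

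The 5 markers of border-associated macrophages summed to 25.6, 18.6 and 11.3 CPM in sham blood, 15.3, 26.0 and 22.0 CPM in stroke blood and 51.9, 109 and 178 CPM in stroke brain, with Mrc1 the most abundant and Folr2 at 0 in sham blood. Brain libraries were again the highest. Dendritic cell markers (5 genes, Cd209a the most abundant, none at 0 in any group) summed to 346, 257 and 103 CPM in sham blood, 111, 224 and 98.4 CPM in stroke blood and 803, 648 and 623 CPM in stroke brain. The 5 neutrophil markers, led by Ngp and with none at 0 in any group, summed to 69.8, 15.4 and 22.8 CPM in sham blood, 4.28, 2.56 and 34.7 CPM in stroke blood and 440.0, 265 and 441 CPM in stroke brain. The 5 T and NK cell markers, led by Gzma and with none at 0 in any group, summed to 194, 509 and 293 CPM in sham blood, 774, 286 and 274 CPM in stroke blood and 534, 1043 and 1062 CPM in stroke brain. Dendritic cell and neutrophil sums were higher in every brain library than in every blood library, while the T and NK cell sums of brain and blood overlapped.

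The 5 neuron markers, led by Tubb3, summed to 0.299, 1.26 and 0.664 CPM in sham blood, 0.357, 0.949 and 0.120 CPM in stroke blood and 0.683, 1.04 and 2.40 CPM in stroke brain, and in brain Syt1 and Rbfox3 had 0 counts while Snap25 and Nefl were near 0. In blood, Snap25, Syt1 and Nefl had 0 counts, as did Rbfox3 in sham blood. The 6 astrocyte markers, led by Aldoc, summed to 6.62, 7.18 and 7.20 CPM in sham blood, 6.02, 7.16 and 4.13 CPM in stroke blood and 14.2, 19.4 and 30.4 CPM in stroke brain. Aqp4 and Slc1a3 were at 0 in sham blood, and Aqp4, Slc1a3 and Gfap were at 0 in stroke blood. Each astrocyte marker had a count in at least 1 brain library, and Slc1a3 reached 2.20, 6.07 and 16.5 CPM. The 6 oligodendrocyte markers summed to 115, 159 and 133 CPM in sham blood, 118, 143 and 114 CPM in stroke blood and 115, 140.1 and 143 CPM in stroke brain, nearly all of it Cnp, which blood cells also expressed at 115, 155 and 128 CPM in sham blood. Mog had 0 counts in all 9 libraries, and Mobp and Cldn11 had 0 counts in blood. Mobp had 1.07, 2.58 and 1.70 CPM in brain.

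Some libraries stood apart from the others. Sham blood replicate 1 was low in erythroid markers (5 genes, Hbb-bs the most abundant), which summed to 946, 27428 and 25289 CPM in sham blood, 11938, 10986 and 15718 CPM in stroke blood and 3.27, 9.85 and 11.7 CPM in stroke brain, with Slc4a1 at 0 in brain. It was also low in platelet markers (5 genes, Ppbp the most abundant), which summed to 12.9, 342 and 498 CPM in sham blood, 243, 309 and 225 CPM in stroke blood and 1.81, 3.37 and 4.01 CPM in stroke brain, with Gp5 at 0 in brain. Its Egr1, an immediate early gene, was high, with 184, 11.5 and 7.53 CPM over the sham blood libraries. Stroke blood replicate 2 held the highest value of the 9 libraries for 8 of the 18 synthesis enzymes. Vegfa stood at 222, 15.7 and 14.7 CPM in brain replicates 1, 2 and 3 and Elane at 149, 10.5 and 16.8 CPM, so brain replicate 1 was far above the others for both. These lists are given as measured, and their part in the differences below was not tested, beyond the values without each library.

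Stroke brain was compared with stroke blood to describe what differed between the cells recovered from the lesioned hemisphere and those in the circulation of mice with the same injury. Of the 7 LXR receptors and targets 4 rose in brain, while the 18 synthesis enzymes either fell by less than 2-fold or did not pass the test. Abca1, which hands cholesterol to lipid-poor apolipoprotein, was 8.51-fold higher in brain, and Abcg1, which hands it to high-density lipoprotein, 3.41-fold higher. The receptor gene Nr1h3 (LXR alpha) was 3.01-fold higher and its relative Nr1h2 (LXR beta) was not past the threshold. Of the 31 members, all 31 passed the filter on low counts, 5 were DEGs higher in brain against 13.1% of the 13189 genes tested, and 0 were DEGs lower against 7.86%. Of the 5, Ch25h had 0 counts in stroke blood, passed the filter only through its brain counts and could only come out higher. At any fold size, 5 rose against 17.5% of genes and 4 fell against 13.1%. For the 0 lower DEGs of edgeR, 4 members were lower at an unadjusted p under 0.05, beside 18.9% of all genes, and DESeq2 also called 0.

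**Figure D1:**
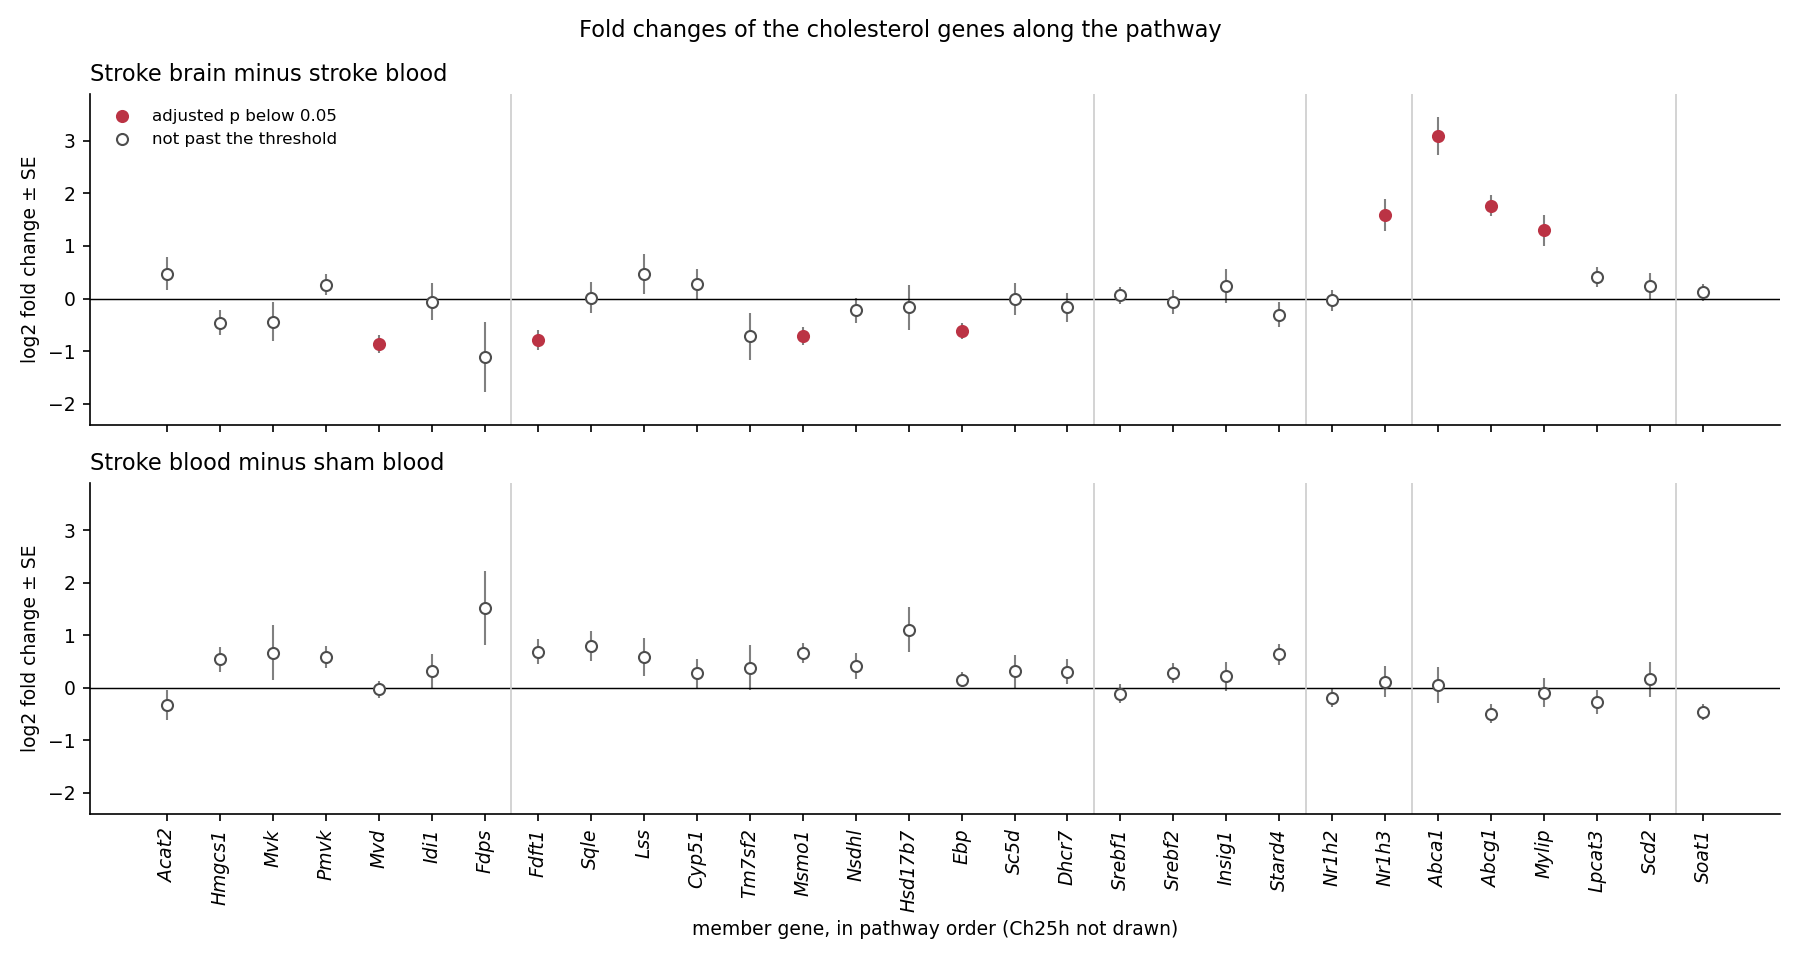
Log2 fold change ± SE (y axis) of each member gene, in pathway order (x axis), for stroke brain against stroke blood (upper panel) and stroke blood against sham blood (lower panel). Filled points had an adjusted p below 0.05, grey lines separate the roles, and Ch25h, at 0 in stroke blood, is not drawn. In the upper panel the filled points above 0 are Nr1h3, Abca1, Abcg1 and Mylip and those below 0 are Mvd, Fdft1, Msmo1 and Ebp, while the lower panel has no filled point.

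Abca1 (ENSMUSG00000015243, chr4:53030787-53159895) stood at 7.86, 8.90 and 6.26 CPM in sham blood, 4.84, 8.16 and 11.5 CPM in stroke blood and 49.3, 58.7 and 95.2 CPM in stroke brain. Every brain library was far above every blood library, and within brain replicate 3 was the highest. The log2 fold change was 3.09 ± 0.36 against stroke blood (adjusted p = 0.000341, edgeR). Abcg1 (ENSMUSG00000024030, chr17:31057698-31115777) stood at 181, 201 and 141 CPM in sham blood, 123, 113 and 144 CPM in stroke blood and 309.6, 489.7 and 464 CPM in stroke brain. Its brain libraries were also all above blood, with brain replicate 1 the lowest of the 3, and sham blood tended to lie above stroke blood with overlap at replicate 3. The log2 fold change was 1.77 ± 0.20 (adjusted p = 0.000290, edgeR).

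Nr1h3 (ENSMUSG00000002108, chr2:91184061-91202834) encodes LXR alpha, the LXR form prominent in macrophages. It stood at 8.16, 14.8 and 8.86 CPM in sham blood, 10.0, 14.5 and 10.7 CPM in stroke blood and 21.2, 41.2 and 41.9 CPM in stroke brain. Brain replicate 1 was the lowest of the brain libraries, and brain and blood did not overlap. The log2 fold change was 1.59 ± 0.30 (adjusted p = 0.00390, edgeR). Nr1h2, the broadly expressed LXR beta, stood at 90.3, 85.5 and 93.8 CPM in sham blood, 68.4, 76.4 and 96.5 CPM in stroke blood and 94.7, 69.0 and 66.6 CPM in stroke brain, and the groups overlapped (log2 fold change -0.031 ± 0.20, turning positive to 0.13 when libraries were scaled by their totals only). Per kilobase, Nr1h2 exceeded Nr1h3 in stroke blood, at 24.0 ± 4.32 against 4.67 ± 0.962 CPM per kilobase. In brain the levels were 22.9 ± 4.64 and 13.8 ± 4.66 CPM per kilobase.

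Mylip (ENSMUSG00000038175, chr13:45389742-45412022), an LXR target whose product marks lipoprotein receptors for degradation, stood at 9.55, 14.0 and 14.6 CPM in sham blood, 16.1, 11.3 and 9.04 CPM in stroke blood and 27.7, 21.6 and 38.7 CPM in stroke brain. Brain libraries were all above blood, the nearest pair being brain replicate 2 and stroke blood replicate 1. The log2 fold change was 1.30 ± 0.29 (adjusted p = 0.00960, edgeR). The other LXR targets listed were lipid enzymes and did not pass the test. Lpcat3, which remodels phospholipids, stood at 48.4, 59.1 and 82.6 CPM in sham blood, 52.0, 62.1 and 46.5 CPM in stroke blood and 59.8, 67.3 and 82.8 CPM in stroke brain. Scd2, a fatty acid desaturase, stood at 30.0, 52.1 and 73.7 CPM in sham blood, 56.0, 77.1 and 43.7 CPM in stroke blood and 83.8, 62.8 and 58.9 CPM in stroke brain. For both genes all 3 groups overlapped. Brain against stroke blood gave a log2 fold change of 0.41 ± 0.19 for Lpcat3 and 0.24 ± 0.25 for Scd2.

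Ch25h (ENSMUSG00000050370, chr19:34473786-34475135) makes 25-hydroxycholesterol, an oxysterol that activates LXRs and holds back SREBP processing. Its counts were 1, 0 and 0 in sham blood, 0, 0 and 0 in stroke blood and 72, 101 and 114 in stroke brain, or 3.51, 4.20 and 4.97 CPM in brain. Only the brain libraries held more than a single count. Against a floor of 3 counts in each stroke blood library it was at least 26.7-fold higher in brain (adjusted p = 0.000373, edgeR). The gene entered that test only through its brain counts, so its direction was fixed beforehand. Against sham blood, with 1 count in all, the ratio was 254 with a 95% Clopper-Pearson interval of 45.2 to 10051, which covers counting error only. Soat1, which esterifies cholesterol for storage, stood at 418, 374 and 385 CPM in sham blood, 318, 293 and 262 CPM in stroke blood and 290.2, 349.9 and 284 CPM in stroke brain. Brain and stroke blood overlapped for Soat1 (log2 fold change 0.12 ± 0.16), and all sham blood libraries lay above both.

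The 7 LXR receptors and targets had a median log2 fold change of 1.30 against 0.062 over all genes tested. Without brain replicate 3, the library with the highest microglia markers, this median was 1.06, Abca1 had a log2 fold change of 2.77, Abcg1 one of 1.70 and Nr1h3 one of 1.45. The 5 higher DEGs were called with each library of the comparison left out in turn. Microglia markers and efflux genes were high in the same 3 libraries, and the part of microglia in the difference was not tested.

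**Figure D2:**
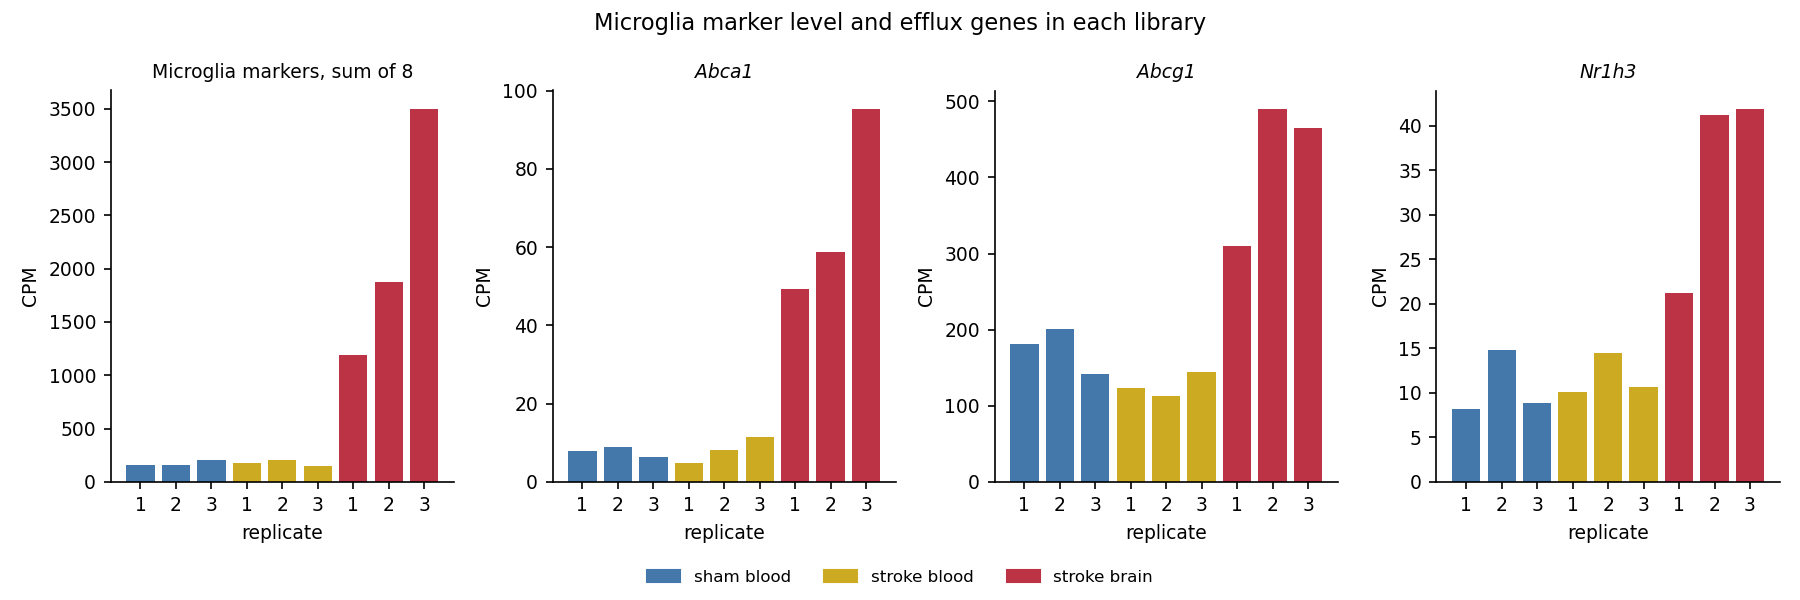
Bars give CPM (y axis, from 0) in each of the 9 libraries (x axis, replicates 1 to 3 of sham blood, stroke blood and stroke brain) for the sum of 8 microglia markers and for Abca1, Abcg1 and Nr1h3. The marker sum is 1189.6, 1879 and 3497 CPM in brain and at most 209 CPM in blood. Abca1 is highest in brain replicate 3, as the markers are, while Abcg1 is highest in brain replicate 2.

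On the synthesis side, 4 of 18 enzymes fell in brain against stroke blood and 0 rose, beside 13.1% and 17.5% of all genes at any fold size. By edgeR and by DESeq2 there were 0 DEGs lower and 0 higher, beside 7.86% and 13.1% of all genes, and 4 enzymes, all lower, had an unadjusted p under 0.05, beside 18.9% of all genes lower. Mvd (ENSMUSG00000006517, chr8:122433601-122443422) makes isopentenyl diphosphate at the end of the mevalonate steps. It stood at 69.7, 60.4 and 57.9 CPM in sham blood, 56.5, 60.0 and 71.8 CPM in stroke blood and 34.3, 36.4 and 30.1 CPM in stroke brain. All brain libraries were below all blood libraries, and blood groups overlapped. The log2 fold change was -0.87 ± 0.17 (adjusted p = 0.00556, edgeR). Ebp (ENSMUSG00000031168, chrX:8185329-8193512), a sterol isomerase, stood at 132, 118 and 137 CPM in sham blood, 149.6, 129 and 161 CPM in stroke blood and 83.5, 99.1 and 98.1 CPM in stroke brain. Here too brain lay below all blood libraries, with a log2 fold change of -0.61 ± 0.15 (adjusted p = 0.0142, edgeR).

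Fdft1 and Msmo1 also fell against stroke blood, and in neither did brain differ from sham blood past the threshold. Fdft1 (ENSMUSG00000021273, chr14:63145150-63179578), which joins farnesyl units into squalene, stood at 20.1, 27.5 and 37.4 CPM in sham blood, 46.1, 53.5 and 39.8 CPM in stroke blood and 27.2, 25.8 and 25.7 CPM in stroke brain. Msmo1 (ENSMUSG00000031604, chr8:64718139-64733792), a sterol methyl oxidase, stood at 95.3, 70.7 and 88.6 CPM in sham blood, 127, 161 and 122 CPM in stroke blood and 83.2, 74.0 and 87.8 CPM in stroke brain. In both, stroke blood was the group set apart: its libraries were the highest, and brain overlapped sham blood. The log2 fold change of brain against stroke blood was -0.79 ± 0.19 for Fdft1 (adjusted p = 0.0119, edgeR) and -0.71 ± 0.17 for Msmo1 (adjusted p = 0.0129, edgeR). Without brain replicate 3 Fdft1 did not pass, at -0.77, and without brain replicate 2 Msmo1 did not pass, at -0.64. In the annotation Fdft1 shares 774 bases with Ctsb on the opposite strand, a gene with 873149 counts over all libraries against 6134 for Fdft1, and the strand setting of the counting is not given in the sources used here.

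The remaining 14 enzymes did not pass in brain against stroke blood. Among the mevalonate steps, log2 fold changes were 0.47 for Acat2 (acetoacetyl-CoA thiolase), -0.46 for Hmgcs1 (which makes hydroxymethylglutaryl-CoA), -0.44 for the kinase Mvk, 0.27 for the kinase Pmvk, -0.060 for the isomerase Idi1 and -1.11 for Fdps, which makes farnesyl diphosphate. Fdps was near the counting limit, at 0.0995, 0.559 and 0.720 CPM in sham blood, 2.04, 1.14 and 0.839 CPM in stroke blood and 0.439, 0.291 and 1.09 CPM in stroke brain, and it shares 1124 exon bases with Gm43738 on its own strand. Among the squalene and sterol steps they were 0.019 for Sqle (squalene epoxidase), 0.47 for Lss (lanosterol synthase), 0.27 for Cyp51 (lanosterol demethylase), -0.72 for Tm7sf2 (a sterol reductase), -0.23 for Nsdhl (a sterol dehydrogenase), -0.17 for Hsd17b7 (a sterol ketone reductase), -0.0094 for Sc5d (a desaturase) and -0.17 for Dhcr7 (the last reductase of a branch). Scaling by library totals only gave positive values for Idi1 (0.089) and Sc5d (0.14), and DESeq2 gave -0.0029 for Sqle.

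Acat2 stood at 11.8, 8.85 and 9.13 CPM in sham blood, 10.0, 8.68 and 5.57 CPM in stroke blood and 13.2, 8.73 and 11.2 CPM in stroke brain. In this gene stroke blood replicate 3 was the lowest library and the groups overlapped. Mvk stood at 1.39, 5.64 and 8.69 CPM in sham blood, 10.0, 8.02 and 7.37 CPM in stroke blood and 7.42, 3.20 and 7.68 CPM in stroke brain. Sham blood replicate 1 and brain replicate 2 were low and all groups overlapped. Idi1 stood at 6.57, 5.50 and 7.75 CPM in sham blood, 7.80, 11.7 and 5.45 CPM in stroke blood and 6.64, 7.31 and 9.60 CPM in stroke brain. Stroke blood replicates 2 and 3 were the highest and the lowest of all. Cyp51 stood at 58.3, 47.2 and 52.0 CPM in sham blood, 54.7, 93.7 and 45.5 CPM in stroke blood and 97.2, 65.4 and 67.7 CPM in stroke brain. Every brain library was above every sham library, and stroke blood replicate 2 was nearly as high as brain replicate 1.

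Tm7sf2 stood at 1.99, 2.61 and 4.71 CPM in sham blood, 2.80, 3.79 and 5.81 CPM in stroke blood and 3.27, 1.75 and 2.31 CPM in stroke brain. This enzyme was low throughout and the groups overlapped. Nsdhl stood at 17.7, 12.8 and 25.0 CPM in sham blood, 24.7, 26.8 and 23.7 CPM in stroke blood and 20.6, 15.5 and 26.8 CPM in stroke brain. Within sham blood and within brain replicate 2 was the lowest library and replicate 3 the highest. Sc5d stood at 42.3, 32.3 and 32.8 CPM in sham blood, 45.8, 64.3 and 25.1 CPM in stroke blood and 45.2, 39.3 and 47.8 CPM in stroke brain. Stroke blood replicates 2 and 3 were again the highest and the lowest of the 9 libraries. Dhcr7 stood at 10.8, 10.1 and 14.2 CPM in sham blood, 13.7, 17.2 and 13.3 CPM in stroke blood and 16.3, 9.06 and 13.2 CPM in stroke brain. The highest library was stroke blood replicate 2 and the lowest brain replicate 2.

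The median over the 18 enzymes was -0.20 against 0.062 over all genes tested. It moved to -0.023 without brain replicate 2 and to -0.41 without brain replicate 3. Scaling by library totals alone shifted the median of all genes to 0.216, the synthesis median to -0.045 and the LXR median to 1.45. Relative to the median of all genes these were -0.26 and 1.24, which a uniform change of scale leaves in place. In that scaling, Mvd, Ebp, Fdft1 and Msmo1 still fell.

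The genes that sense and move sterol did not pass in brain against stroke blood: the log2 fold change was 0.058 ± 0.15 for Srebf1, whose product favours fatty acid genes, and -0.073 ± 0.23 for Srebf2, which encodes the main driver of the synthesis chain. Srebf2 turned to 0.085 when scaled by library totals only. Insig1, which holds SREBP in the endoplasmic reticulum when sterol is plentiful, had 0.24 ± 0.32, and Stard4, which carries cholesterol through the cytosol, -0.31 ± 0.23. Srebf2 and Insig1 were both highest in brain replicate 1, at 240.1, 133 and 156 and 67.7, 37.3 and 43.4 CPM over the brain libraries. Srebf1 stood at 81.8, 94.1 and 120.0 CPM in sham blood, 84.1, 101 and 93.6 CPM in stroke blood and 88.3, 94.1 and 102 CPM in stroke brain, with all groups overlapping. Without brain replicate 1 Srebf2 had -0.36 and Insig1 -0.058.

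**Figure D3:**
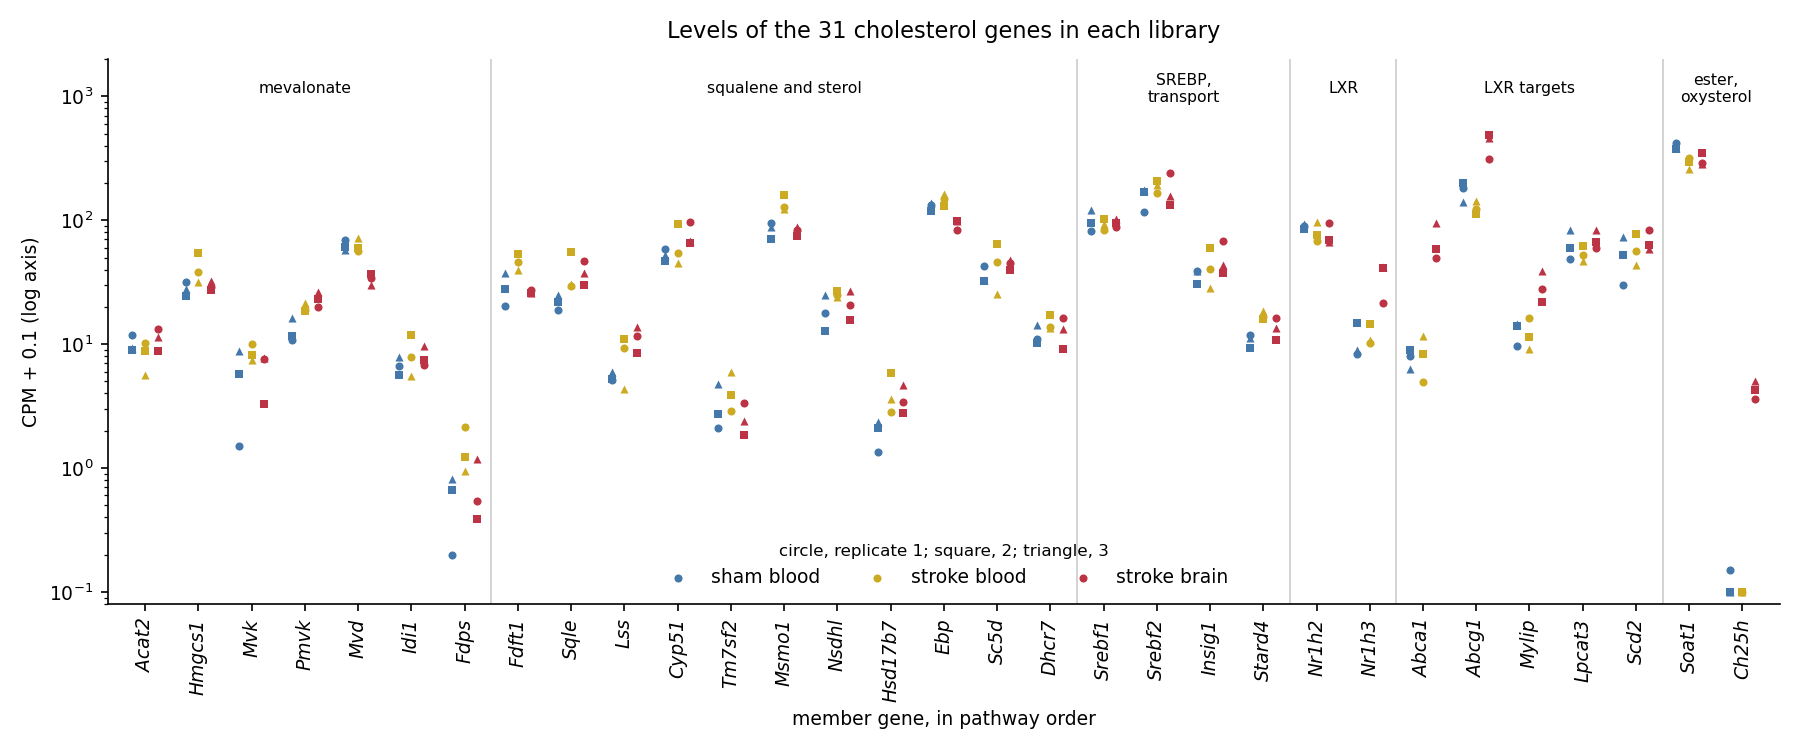
CPM plus 0.1 (log y axis) of the 31 member genes (x axis, in pathway order, roles named above) in sham blood, stroke blood and stroke brain, with a point for each library and its shape giving the replicate. Brain points stand apart above blood for Nr1h3, Abca1, Abcg1, Mylip and Ch25h and below blood for Mvd and Ebp. Fdps is the lowest synthesis enzyme in every library.

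The members differed widely in level. In brain, the synthesis enzymes ranged from 0.144 ± 0.101 CPM per kilobase for Fdps to 40.5 ± 3.78 for Ebp, followed downward from Ebp by Mvd at 18.1 ± 1.71 and Cyp51 at 17.4 ± 4.02, which lay within each other's spread. Among LXR genes Abcg1 was the highest in brain, at 57.7 ± 13.4 CPM per kilobase, and Abca1 the lowest, at 6.54 ± 2.34, so that the gene with the larger fold change had the lower level. Between them, in falling order, stood Nr1h2, Lpcat3 at 21.4 ± 3.60, Nr1h3, Scd2 at 12.5 ± 2.45 and Mylip at 9.07 ± 2.68 CPM per kilobase. On this scale the brain libraries of Nr1h2 and Lpcat3 overlapped, as did those of Nr1h3 and Scd2 and of Scd2 and Mylip, while those of Lpcat3 and Nr1h3 did not. In stroke blood Soat1 had 29.7 ± 2.88 and Abcg1 17.4 ± 2.20 CPM per kilobase, while in brain the order was reversed, with Soat1 at 31.5 ± 3.70.

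Upstream sequence was examined because the enzymes of synthesis share known regulatory motifs and 4 of them fell together. Promoters from RefSeq (GRCm38.p6, 250 bases before to 50 after the start) matched 25 of 31 members, with no match for Fdps, Fdft1, Sqle, Stard4, Abcg1 and Scd2. TCACNCCAC, a form of the sterol regulatory element bound by SREBP, was in 1 matched member, Hmgcs1, and in 1.24% of all 32851 promoters, counting both strands. CCAAT, the box bound by NF-Y, was in 21 of the 31 promoters that the matched members have and in 37.4% of all promoters. Neither the LXR motif DR4 (AGGTCA repeated after 4 bases) nor its core (GGTCA repeated after 4 bases) was in any member, and they were in 0.0152% and 0.0457% of all promoters. Abca1, Nr1h3 and Ch25h, all higher in brain, held none of these letters in the windows searched, and Mylip held CCAAT 3 times. Only exact matches were counted, so variant forms of a motif were not searched. Absence therefore does not show that a gene lacks such an element. The 250 bases before the start are printed for Hmgcs1 (chr13:119690101-119690350, plus strand), the member that held the sterol element, with the element and the CCAAT boxes, which read ATTGG on the other strand, in capitals. Those of Mvd (chr8:122443423-122443672, minus strand) and Ebp (chrX:8193513-8193762, minus strand), chosen after values were seen from the enzymes that fell against stroke blood, show CCAAT boxes only. Msmo1, which also fell, held CCAAT 3 times and is not printed. Its bases before the start lie partly within its annotated gene.
Hmgcs1: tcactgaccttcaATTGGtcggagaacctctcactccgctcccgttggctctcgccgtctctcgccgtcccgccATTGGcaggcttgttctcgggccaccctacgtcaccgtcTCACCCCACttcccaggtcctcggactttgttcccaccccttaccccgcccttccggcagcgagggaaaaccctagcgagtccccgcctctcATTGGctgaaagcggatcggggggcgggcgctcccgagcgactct
Mvd: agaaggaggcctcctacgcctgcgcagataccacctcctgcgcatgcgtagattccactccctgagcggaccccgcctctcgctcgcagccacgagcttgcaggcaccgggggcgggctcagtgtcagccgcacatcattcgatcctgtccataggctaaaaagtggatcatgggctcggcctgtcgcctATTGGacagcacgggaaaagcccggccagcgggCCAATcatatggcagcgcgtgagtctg
Ebp: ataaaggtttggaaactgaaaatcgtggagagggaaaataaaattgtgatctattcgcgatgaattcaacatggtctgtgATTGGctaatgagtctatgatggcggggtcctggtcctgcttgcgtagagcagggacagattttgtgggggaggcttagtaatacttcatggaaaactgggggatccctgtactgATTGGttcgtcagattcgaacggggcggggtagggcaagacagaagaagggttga

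The printed bases hold 3 CCAAT boxes and 1 sterol element for Hmgcs1, 2 boxes for Mvd and 2 for Ebp, and Hmgcs1 has a further box after its start. Hmgcs1 itself stood at 31.5, 24.6 and 27.7 CPM in sham blood, 38.0, 54.0 and 31.9 CPM in stroke blood and 28.8, 27.4 and 32.2 CPM in stroke brain, where stroke blood lay above sham blood and brain overlapped both. A match describes letters in a window and does not show a factor bound there.

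Stroke blood was compared with sham blood to describe the response in circulating cells. Most synthesis enzymes had higher levels in stroke blood, but no member passed the test. In edgeR's quasi-likelihood fit, 30 members were tested and 0 were DEGs higher, against 0.00790% of the 12664 genes tested, and 0 lower, against 0%. The counts at any fold size were the same, 0 against 0.00790% higher and 0 against 0% lower. DESeq2 also called 0 members. At an unadjusted p under 0.05 there were 7 members higher and 2 lower, beside 6.51% of all genes higher and 5.97% lower. The only gene called in all was Serpinb10, with a log2 fold change of 1.84 ± 0.17 (adjusted p = 0.0231, edgeR). Over all genes DESeq2 called 122, and edgeR called 16 without sham blood replicate 1, 2 without sham blood replicate 3, and 0 without sham blood replicate 2 or without any of the stroke blood libraries in turn.

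The median log2 fold change of the 18 enzymes was 0.48 against -0.032 over all genes tested. Of the 18, 16 had a positive value, beside 46.7% of all genes tested. Without stroke blood replicate 2, the library with the highest value of the 9 for 8 of the 18 enzymes, the median was 0.30. The smallest unadjusted p among members was that of Msmo1, where all stroke blood libraries exceeded all sham libraries by the values above (log2 fold change 0.66 ± 0.19, adjusted p = 0.287, edgeR). The cholesterol carrier Stard4 stood at 11.8, 9.13 and 11.1 CPM in sham blood, 16.5, 16.0 and 18.5 CPM in stroke blood and 16.1, 10.7 and 13.3 CPM in stroke brain. Stard4 showed the same separation of stroke from sham blood, with a log2 fold change of 0.63 ± 0.20 (adjusted p = 0.319, edgeR). Sqle stood at 18.7, 21.9 and 24.9 CPM in sham blood, 29.3, 55.3 and 30.4 CPM in stroke blood and 47.2, 29.7 and 37.7 CPM in stroke brain. Its stroke blood libraries were above sham, mostly through replicate 2, and its log2 fold change of 0.79 ± 0.28 had an adjusted p of 0.330 by edgeR.

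Hsd17b7 had a log2 fold change of 1.11 ± 0.43 at a low level, 1.24, 2.00 and 2.27 CPM in sham blood, 2.75, 5.79 and 3.53 CPM in stroke blood and 3.32, 2.66 and 4.58 CPM in stroke brain. Pmvk had 0.59 ± 0.22, Fdft1 0.69 ± 0.25 and Hmgcs1 0.54 ± 0.24, and with Msmo1, Sqle, Hsd17b7 and Stard4 these were the 7 members higher at an unadjusted p under 0.05. The members lower at that level were Abcg1, at -0.50 ± 0.18, and Soat1, at -0.46 ± 0.15, none past the adjusted threshold, where Abcg1 had an adjusted p of 0.338 and Soat1 one of 0.322 by edgeR. The other enzymes ranged from -0.32 for Acat2 to 1.51 for Fdps. Of the LXR genes, Abca1 had 0.052 ± 0.34, Nr1h3 0.12 ± 0.30, Nr1h2 -0.19 ± 0.17, Mylip -0.10 ± 0.28, Lpcat3 -0.27 ± 0.23 and Scd2 0.16 ± 0.33, and their median with Abcg1 was -0.10. Srebf1 had -0.11 ± 0.18, Srebf2 0.28 ± 0.19 and Insig1 0.22 ± 0.27. Ch25h was not tested, with 1 count in the 6 blood libraries.

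Stroke brain against sham blood shares its brain libraries with the earlier brain comparison and its sham libraries with the blood comparison, so the values are given beside those and not as a separate line of evidence. Abca1, Abcg1, Nr1h3 and Mylip were again higher, and the synthesis enzymes Lss, Pmvk and Sqle, which did not pass against stroke blood, rose against sham blood. Of 31 members tested, 6 were DEGs higher, against 9.75% of 13020 genes, and 0 were DEGs lower, against 3.67%, with 3 members lower at an unadjusted p under 0.05, beside 15.1% of all genes, and 0 lower by DESeq2. At any fold size 8 rose, against 12.1% of genes, and 1 fell, against 7.68%. The DEGs were Abca1 (log2 fold change 3.14 ± 0.29), Abcg1 (1.27 ± 0.22), Nr1h3 (1.71 ± 0.34), Mylip (1.20 ± 0.27), Ch25h and Lss. Ch25h again passed the filter on low counts only through its brain counts. Lss (ENSMUSG00000033105, chr10:76531588-76557138), which closes the sterol ring, stood at 5.08, 5.13 and 5.87 CPM in sham blood, 9.28, 11 and 4.25 CPM in stroke blood and 11.6, 8.31 and 13.6 CPM in stroke brain. Its brain libraries were above all sham libraries and overlapped stroke blood, with a log2 fold change against sham blood of 1.05 ± 0.27 (adjusted p = 0.0308, edgeR).

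Pmvk, at 10.7, 11.5 and 16.2 CPM in sham blood, 18.9, 18.3 and 21.6 CPM in stroke blood and 19.8, 23.1 and 26.1 CPM in stroke brain, and Sqle rose by less than 2-fold, with log2 fold changes of 0.84 ± 0.23 (adjusted p = 0.0374, edgeR) and 0.80 ± 0.22 (adjusted p = 0.0382, edgeR). For both genes sham blood was the lowest group, and stroke blood and brain overlapped. Mvd fell by 0.90 ± 0.16 on the log2 scale (adjusted p = 0.00803, edgeR). Ebp, at -0.46 ± 0.14 with an adjusted p of 0.0507, did not pass in edgeR but passed in DESeq2, with RLE scaling, with a mean of at least 50 counts and with all 9 libraries in a single fit. The count of members past the adjusted threshold dropped from 9 to 5 without sham blood replicate 1, 2 or 3 or brain replicate 3, each left out alone. Lss, between 0.89 and 1.22, lost its call without any of sham blood replicates 1, 2 and 3 or brain replicates 1 and 3, and so did Sqle, between 0.62 and 0.95. Both also lost it with all 9 libraries in a single fit, where Lss had 1.06 and Sqle 0.81, and with the replicate block, where they had 1.03 and 0.79. Mylip was lost without sham blood replicate 1 (1.03), 2 (1.27) or 3 (1.30) or brain replicate 3 (0.95). Pmvk was lost without sham blood replicate 1 (0.73) or 2 (0.76) or brain replicate 2 (0.84) or 3 (0.74), and Nr1h3 without sham blood replicate 3 (1.58).

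The median log2 fold change against sham blood was 0.20 for the 18 enzymes and 1.20 for the 7 LXR genes, beside 0.010 over all genes tested. Scaled by library totals alone, the median of all genes was 0.132, that of the enzymes 0.32 and that of the LXR genes 1.32, or 0.19 and 1.19 relative to all genes. The synthesis median was 0.045 without brain replicate 3, 0.0885 without sham blood replicate 2, 0.33 without sham blood replicate 3 and 0.34 without brain replicate 2. Synthesis in brain lay between the blood groups, above sham blood and below stroke blood by the median, and no test was made of the list.

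Synthesis was set against efflux within each library as the mean log2(CPM + 1) of the 18 enzymes minus that of the 7 LXR genes, a description with no test. The difference was -1.04, -1.39 and -1.02 in sham blood, -0.58, -0.53 and -0.84 in stroke blood and -1.77, -2.18 and -2.06 in stroke brain. The groups did not overlap: the difference was lowest in brain and highest in stroke blood. Group means were -1.15 ± 0.21, -0.65 ± 0.17 and -2.00 ± 0.21 in sham blood, stroke blood and stroke brain. The mean of the 7 LXR genes set brain apart, at 6.02, 6.14 and 6.37 in brain against 4.91, 5.28 and 5.21 in sham blood and 4.96, 5.16 and 5.05 in stroke blood. The synthesis mean was 3.86, 3.89 and 4.19 in sham blood, 4.39, 4.63 and 4.21 in stroke blood and 4.25, 3.96 and 4.31 in brain, where brain overlapped both blood groups. Of the 7 LXR genes only Abca1 and Abcg1 encode sterol exporters. A separate list of 13 other efflux, LXR partner and lipoprotein genes, 11 of them tested, had a median log2 fold change of -0.61 in brain against stroke blood, beside 0.062 over all genes. Of the 11 values 8 were negative, while 53.1% of all genes tested had a positive value. At any fold size 3 of these genes rose and 3 fell, beside 17.5% and 13.1% of all genes.

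**Figure D4:**
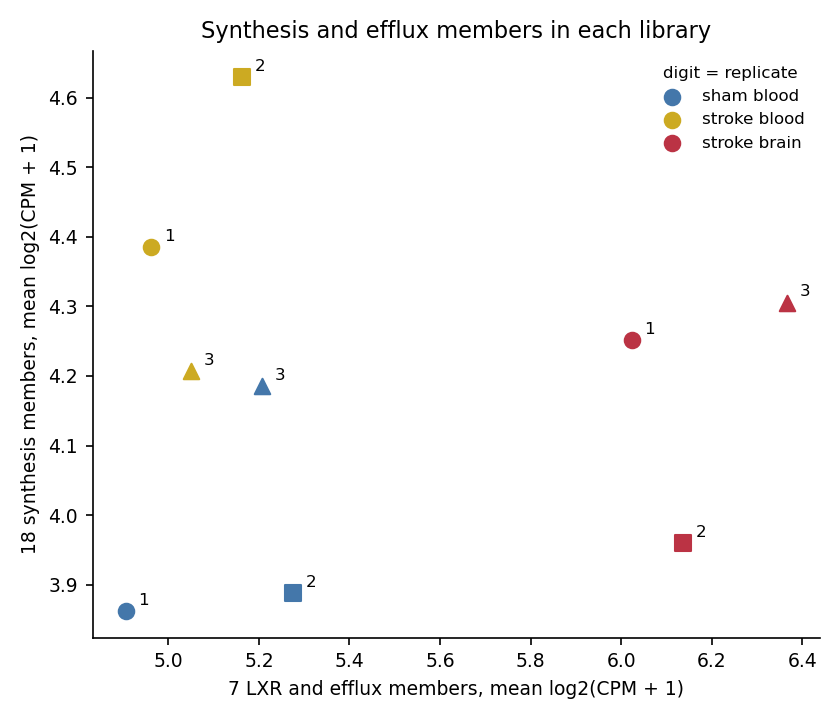
Each point is a library: mean log2(CPM + 1) of the 7 LXR and efflux members (x axis) against that of the 18 synthesis members (y axis), coloured by group, with the replicate as a digit. The 3 brain libraries lie to the right, between 6.02 and 6.37, and blood reaches at most 5.28 on that axis. Stroke blood lies above sham blood on the synthesis axis.

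A wider list of 55 pathway genes was mixed in direction. In brain against stroke blood, 51 were tested, 8 were DEGs higher and 2 lower, beside 13.1% and 7.86% of all genes tested. At any fold size 12 rose and 8 fell, beside 17.5% and 13.1% of all genes. Of the uptake receptors, Cd36, a scavenger receptor, stood at 31.6, 38.0 and 18.5 CPM in sham blood, 55.1, 50.2 and 24.4 CPM in stroke blood and 168, 138 and 146 CPM in stroke brain, all brain libraries above all blood libraries (log2 fold change 1.83 ± 0.29, adjusted p = 0.00163, edgeR). Olr1, a receptor for oxidised lipoprotein, rose with a log2 fold change of 1.25 ± 0.26. The abundant receptors Lrp1, at -0.90 ± 0.19, and Scarb1, at -0.95 ± 0.18, fell, and the scavenger receptor Msr1, at 0.38 ± 0.19, did not pass.

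Nceh1, which frees cholesterol from its ester, rose with a log2 fold change of 1.30 ± 0.16, from 41.3, 48.5 and 41.9 CPM in stroke blood to 104, 107 and 106 CPM in brain. The transporter gene Abca7 fell, at -1.07 ± 0.24 (under the fold threshold with library-size scaling and without stroke blood replicate 2 or brain replicate 2 or 3, with -0.90 without brain replicate 2 the nearest to 0), and so did the lysosomal sterol carrier Npc2, at -0.84 ± 0.14. Gramd1a, at 1.19 ± 0.22, and Gramd1b, at 1.03 ± 0.31, which move sterol from the plasma membrane to the endoplasmic reticulum, rose. Without brain replicate 1 Gramd1a was under the fold threshold, at 0.96. Gramd1b lost its call without any of stroke blood replicates 1, 2 and 3 or brain replicates 1 and 3, where its log2 fold change was lowest without brain replicate 1, at 0.84. With the replicate block (0.99) its adjusted p was also above 0.05, and in DESeq2, with RLE scaling and with all 9 libraries in a single fit (0.99) it was just under the fold threshold. Fads1, a fatty acid desaturase, stood at 3.09, 5.27 and 7.42 CPM in sham blood, 3.57, 5.12 and 3.17 CPM in stroke blood and 23.8, 27.8 and 45.9 CPM in stroke brain, with brain above all blood libraries (log2 fold change 3.06 ± 0.33, adjusted p = 0.000246, edgeR). Me1, which makes NADPH for lipid synthesis, was at 0 in stroke blood and at least 4.50-fold higher in brain against 3 counts in each library. It passed the filter on low counts only through its brain counts. Rnf139, a ubiquitin ligase that acts on sterol regulation, had 1.01 ± 0.22, under the fold threshold without stroke blood replicate 1 or 3 or brain replicate 2 or 3, with 0.82 the lowest value. It was also under that threshold in DESeq2 (0.98), with RLE scaling (0.98), with a mean of at least 50 counts (0.99) and with all 9 libraries in a single fit (0.98).

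In stroke against sham blood, 50 of the 55 genes were tested and edgeR called 0 in either direction, with 6 higher and 1 lower at an unadjusted p under 0.05, beside 6.51% and 5.97% of all genes, while DESeq2 called 2 higher. In brain against sham blood, 51 were tested, with 6 DEGs higher and 1 lower, beside 9.75% and 3.67% of all genes. At any fold size 9 rose and 1 fell, beside 12.1% and 7.68% of all genes.

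Other programs also differed between brain and stroke blood, and their part in the differences above was not tested. All 7 cell cycle genes were DEGs higher, with log2 fold changes of 1.65 for Mki67, 2.68 for Tyms, 3.64 for Top2a, 3.84 for Rrm2, 4.06 for Birc5, 5.27 for Cdk1 and 5.56 for Ccnb1, and they summed to 158, 101 and 83.7 CPM in brain and 15.1, 6.73 and 12.3 CPM in stroke blood. Of 7 immediate early genes, 6 were DEGs higher: Fos (1.61), Jun (1.94), Junb (2.18), Fosb (2.20), Atf3 (3.33) and Egr1 (4.79), with Ier2 (0.47) not passing. Fosb lost its call without stroke blood replicate 2 or 3, and without brain replicate 1 its log2 fold change was 1.40. Of 10 hypoxia genes, 9 were matched and 8 tested, with Vegfa, Egln3 (1.97) and Ankrd37 (1.59) DEGs higher and Ndrg1 (-1.98) lower. Ldha (0.82) and Slc2a1 (0.99) rose by less, and Pgk1 (0.15) did not pass. Ankrd37 lost its call without any of the stroke blood libraries or brain replicates 1 and 2, between 1.18 and 1.88. Vegfa was at 0 in stroke blood, with most of its brain counts in replicate 1, and it passed the filter on low counts only through brain.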

How the data were processed

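The files hold raw count values, which the authors made by mapping reads to GRCm38 with HISAT2 and counting them per Ensembl gene with HTSeq, from SMART-Seq HT libraries. Versions, annotation release and strand setting are not given in the sources used here. Symbols, exon lengths, overlaps and near-identical copies of at least 300 bases came from GENCODE M21 (GRCm38), with BLAST 2.17.0 and Python 3.11.15, and 53620 of 53801 identifiers had a symbol. Of the 31 members, 13 overlap another gene's exons or have such a copy (Acat2, Idi1 and Scd2 among them).

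Counts were fitted in edgeR 4.0.16 (R 4.3.3) with TMM scaling, the default filter on low counts, the quasi-likelihood test and Benjamini-Hochberg adjustment over all genes tested, with DESeq2 1.42.0 as an alternative. The SE is the absolute log2 fold change divided by the square root of F. The fit was also run on simulated data, with no outcome given here, and no result above rests on that run. Other alternatives were RLE or library-size scaling, no filter or a mean of at least 50 counts, all 9 libraries in a single fit, a replicate block, no fold threshold, an adjusted p below 0.01, and leaving out each library. Groups are those of the sample titles, and all 9 libraries were used.

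The members and the other lists were chosen with earlier results of these data known. Named genes were drawn from every member, every other pathway or program gene that was a DEG in brain against stroke blood or stroke against sham blood and up to 4 more by level, each marker list's most abundant gene and genes at 0, and, for promoters, members with TCACNCCAC or a DR4 core. The promoters of Mvd and Ebp were added after values were seen. Floors and intervals cover counting error only and leave out the spread between libraries. Reads carry no molecular identifiers, so amplified copies of a molecule cannot be told apart and the intervals may be too narrow.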

Additional observations from a re-analysis of the deposited data

How the results depend on the processing

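For the member genes, 1190 log2 fold changes were recomputed under the alternatives, of which 1099 kept their direction and their side of the threshold, 25 lost it, 4 gained it (all Ebp, brain against sham blood) and 62 changed sign. Every change of sign was in a value that had not passed. In brain against stroke blood, 114 of 116 recomputed values of the 9 genes past the threshold stayed past it, and in brain against sham blood 93 of 116. The named genes outside the members that passed in brain against stroke blood were recomputed too, an addition chosen after seeing the data, and none changed sign. A library left out leaves 5, and the fit then has fewer samples. The cause of the changes below was not tested unless an alternative's construction gives it. Low counts limit the values for Ch25h and Fdps.

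In brain against stroke blood, an adjusted p below 0.01 gave 1793 DEGs and no fold threshold gave 4 lower members. Library-size scaling moved the LXR median to 1.45 and gave log2 fold changes of 0.089 for Idi1, 0.14 for Sc5d, 0.085 for Srebf2 and 0.13 for Nr1h2. Sqle was -0.0029 in DESeq2, -0.0032 with RLE and -0.0078 with all 9 libraries in a single fit. With the replicate block Sc5d was 0.093. Replicate numbers were not taken to pair libraries. Over genes, libraries of the same number correlated between -0.0846 and 0.0844 and those of different numbers between -0.106 and 0.140. These ranges overlap, so they cannot show whether libraries were paired. Leaving out each library in turn, the synthesis median ranged from -0.41 to -0.023 and the LXR median from 1.06 to 1.46. Log2 fold changes ranged as follows: Idi1 -0.32 to 0.24, Sqle -0.17 to 0.36, Hsd17b7 -0.41 to 0.17, Sc5d -0.33 to 0.31, Dhcr7 -0.38 to 0.039, Srebf1 -0.042 to 0.11, Srebf2 -0.36 to 0.10, Insig1 -0.058 to 0.53, Nr1h2 -0.21 to 0.078.

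In stroke against sham blood, DEGs over all genes numbered 122 in DESeq2, 160 with no filter, 0 at an adjusted p below 0.01 (825 higher and 756 lower at an unadjusted p under 0.05 in edgeR), and from 0 to 16 without each library. Mvd was 0.0013 with all 9 libraries in a single fit, and Abca1 -0.013 with the replicate block. Without each library, log2 fold changes ranged as follows: Mvd -0.13 to 0.051, Idi1 -0.063 to 0.54, Cyp51 -0.14 to 0.48, Sc5d -0.080 to 0.60, Srebf1 -0.23 to 0.040, Insig1 -0.14 to 0.45, Nr1h3 -0.11 to 0.44, Abca1 -0.26 to 0.30, Mylip -0.36 to 0.075, Scd2 -0.13 to 0.49.

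In brain against sham blood, an adjusted p below 0.01 gave 792 DEGs and 3 higher members, and no fold threshold gave 1 lower member. Library-size scaling, which moved the median of all genes to 0.132, gave 0.011 for Fdft1, 0.066 for Msmo1 and 0.062 for Srebf1. Without each library there were 1146 to 1883 DEGs, 5 to 8 members past the adjusted threshold and an LXR median of 0.95 to 1.27. Log2 fold changes ranged as follows: Acat2 -0.0038 to 0.29, Hmgcs1 -0.022 to 0.17, Mvk -0.23 to 0.79, Fdps -0.33 to 0.85, Fdft1 -0.31 to 0.13, Tm7sf2 -0.62 to 0.076, Msmo1 -0.19 to 0.034, Nsdhl -0.038 to 0.45, Dhcr7 -0.077 to 0.33, Srebf1 -0.18 to 0.10, Srebf2 -0.091 to 0.36, Lpcat3 -0.021 to 0.37.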
